A study of Arabidopsis thaliana with 9 samples.

Results

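Transcripts of 7 genes of the GABA shunt and of GABA uptake were measured in Arabidopsis thaliana rosettes, out of 33602 gene loci counted. The genes were picked by locus ID for their role in the pathway, and they are the glutamate decarboxylase genes GAD1 (AT5G17330), GAD2 (AT1G65960), GAD3 (AT2G02000) and GAD4 (AT2G02010), the GABA transaminase gene POP2 (AT3G22200), the succinic semialdehyde dehydrogenase gene SSADH (AT1G79440) and the GABA transporter gene GAT1 (AT1G08230). A filter on low counts kept 18783 of the 33602 loci and 6 of the 7 genes, GAD3 being the exception. Rosettes were taken whole from soil-grown plants aged 21 days under 16 hours of light and 8 hours of darkness, and polyA RNA was sequenced. The comparison has 3 genotypes, each with 3 libraries that the submitters call biological replicates: the wild type Col-0, the mutant pdx3-3 (line SALK_054167C) and the mutant pdx3-4 (line GK-260E03). Both mutants are in the Col-0 ecotype, each mutant group is a single insertion line, and how many rosettes made up a sample is not stated in the labels.

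PDX3 encodes the oxidase that recovers pyridoxal phosphate, the active form of vitamin B6, from its other phosphorylated forms. Glutamate decarboxylase is a cytosolic pyridoxal phosphate enzyme that converts glutamate to GABA, and most plant forms are activated by calmodulin when cytosolic calcium rises. In the mitochondrion, POP2, which also carries pyridoxal phosphate, turns GABA into succinic semialdehyde, and SSADH oxidises this to succinate, so that carbon bypasses the 2-oxoglutarate dehydrogenase and succinyl-CoA ligase steps of the TCA cycle. GAT1 carries GABA across the plasma membrane. In Arabidopsis, GAD1 is known as the root form and GAD2 as the form of all organs.

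The bases just before the annotated starts of GAD1, GAD2 and SSADH are shown here because these genes gave the clearest contrast below: GAD1 and SSADH rose in both mutants, whereas no change was called for GAD2, the most abundant of the family. Sequences and positions are from RefSeq, build TAIR10.1, and run 5′ to 3′ on the gene's own strand. Capitals mark matches on either strand to TTGAC (the core of the W-box bound by WRKY factors) or ACGTG (the core of the ABA-responsive and G-box elements). The windows are chr5:5710660-5710909 on the plus strand for GAD1, chr1:24551557-24551806 on the plus strand for GAD2, and chr1:29887415-29887615 on the minus strand for SSADH. The window for SSADH stops at 201 bases, where the neighbouring gene AT1G79450 begins.
GAD1: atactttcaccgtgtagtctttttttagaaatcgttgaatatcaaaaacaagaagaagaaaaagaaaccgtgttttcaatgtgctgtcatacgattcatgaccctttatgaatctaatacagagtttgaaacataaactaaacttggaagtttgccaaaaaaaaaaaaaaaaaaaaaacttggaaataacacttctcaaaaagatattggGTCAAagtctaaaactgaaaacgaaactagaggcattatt
GAD2: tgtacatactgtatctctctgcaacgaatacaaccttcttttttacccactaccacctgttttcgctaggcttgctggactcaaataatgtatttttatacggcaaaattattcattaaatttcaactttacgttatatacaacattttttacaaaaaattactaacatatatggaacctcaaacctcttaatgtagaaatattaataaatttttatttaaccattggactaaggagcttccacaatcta
SSADH: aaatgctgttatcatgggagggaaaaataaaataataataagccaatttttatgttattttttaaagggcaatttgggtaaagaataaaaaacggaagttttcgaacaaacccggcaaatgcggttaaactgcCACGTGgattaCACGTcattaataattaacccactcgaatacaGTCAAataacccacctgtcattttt
GAD1 held 1 TTGAC core, read from the opposite strand, at 40 to 36 bases before its start. GAD2 held no match. SSADH held 1 TTGAC core in the printed bases, at 25 to 21 before its start, and another at 206 to 202 that lies beyond them. It also held 3 ACGTG matches, of which 2 overlap as the palindrome CACGTG at 68 to 63 bases before the start and 1 lies at 57 to 53. Over the 250 bases before each start, GAD4 held 2 TTGAC cores, at 86 to 82 and at 16 to 12, but that stretch lies inside the antisense gene AT2G04155 and is not printed. GAD3 and POP2 each held 1 ACGTG match, at 72 to 68 and at 68 to 64. GAT1 held neither core. A further core, CGCG, which calmodulin-binding CAMTA factors recognise, was in none of the 7 windows. Of the same windows of all 27443 protein-coding genes, 44.9% held TTGAC, 22.9% held ACGTG and 10.1% held CGCG, so matches of this kind are common.

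**Figure D1:**
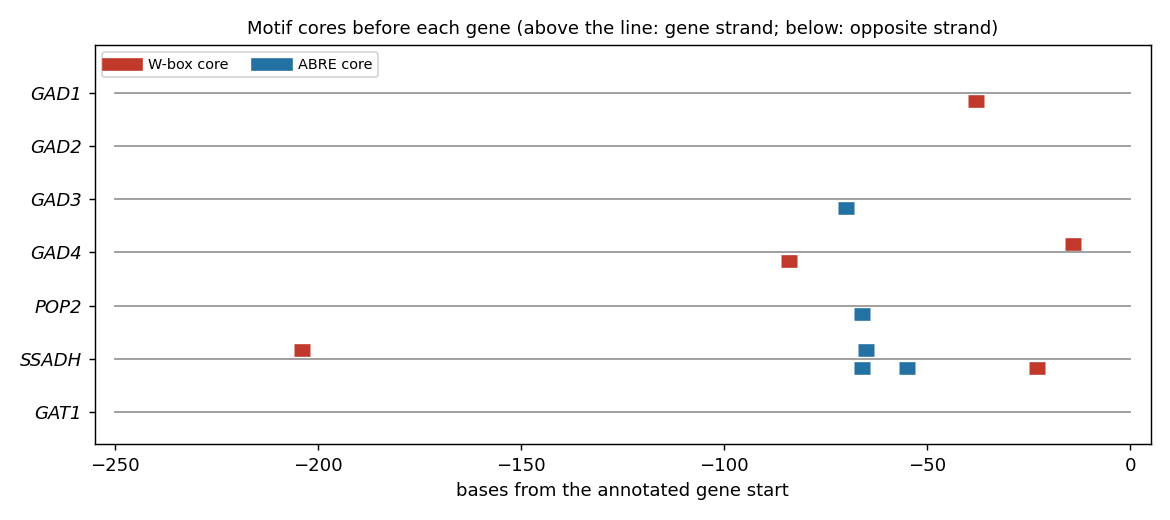
Positions of the TTGAC (W-box) and ACGTG (ABRE) cores in the 250 bases before the annotated start of each of the 7 genes, in bases from the start, with marks above the line for the gene strand and below it for the opposite strand. SSADH carries the most matches, with 2 TTGAC and 3 ACGTG, and GAD2 and GAT1 carry none. Of those of SSADH, 2 ACGTG matches are the palindrome CACGTG read on both strands, and the more distant TTGAC lies in the neighbouring gene AT1G79450.

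Library totals ran from 15912737 to 21938941 counts, and values are given as CPM, which is the count over the library total, scaled to the same total in every library. The fold changes also use TMM scaling factors, here 0.949 to 1.03, which CPM leaves out. A small separation in CPM may therefore not hold on the scale of the fold changes. PDX3 itself checked the labels: its level was 78.7 to 90.1 CPM in Col-0, 8.22 to 10.8 in pdx3-3 and 42.7 to 51.5 in pdx3-4, with no overlap between genotypes (log2 fold change -3.25 and -0.96, edgeR adjusted p = 9.54e-08 and 4.36e-05). In pdx3-3, 2 libraries stood apart by their chloroplast counts, which made up 0.536% of library 1 and 0.174% of library 2 against 0.0162% to 0.0532% in the other 7, so results that change without this pair are given both ways. Summed CPM of 5 rosette leaf markers was 66107 to 69686 in Col-0, 53915 to 58333 in pdx3-3 and 53887 to 58903 in pdx3-4. Of 12 root markers, EXPA7, RHD6, SMB, BRN1 and PLT1 were at 0 in all libraries, and the summed level of the list was 0.214 to 0.319 CPM in Col-0, 0.0477 to 0.126 in pdx3-3 and 0.0469 to 0.288 in pdx3-4. The 5 flower markers summed to 3.76 to 4.71, 2.20 to 4.58 and 0.721 to 2.21 CPM in the same order, but their members did not move together. AG, the largest in Col-0, fell in both mutants (log2 fold change -2.46 and -3.44, edgeR adjusted p = 5.92e-05 and 1.13e-05). SEP3 rose in pdx3-3 (1.36, edgeR adjusted p = 0.0142) and was at -0.07 in pdx3-4, AP1 and AP3 were not called against Col-0, and PI was not tested. In bulk rosettes, a change in the share of a cell type and a change in RNA per cell cannot be told apart.

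The order of abundance was read per kilobase of transcript, the only scale on which levels of different genes are compared here. Counts are per locus, whereas the length is that of a single transcript. For GAD2 this was 2053 bases, against 5547 in all exons of its transcripts, and for GAT1 1696 against 3043. The levels of these genes per kb, and the place of GAT1 beside GAD1 in pdx3-4, depend on this choice. In Col-0, GAD2 led with 213.9 ± 13.1 CPM per kb (SD, n = 3), followed by POP2 with 34.8 ± 1.17, SSADH with 6.62 ± 0.231 and GAT1 with 3.34 ± 0.181. GAD4 and GAD1 came next with 0.605 ± 0.168 and 0.450 ± 0.0706 CPM per kb. These neighbours were not separated, since GAD4 ranged from 0.439 to 0.774 and GAD1 from 0.369 to 0.495, whereas all higher steps of the order had no overlap between their libraries. GAD3 was near 0. GAD1 moved up this order in the mutants. In pdx3-3 it stood at 4.33 ± 1.03 CPM per kb, above GAT1 at 2.30 ± 0.435 and GAD4 at 1.42 ± 0.447, and its lowest library (3.56) was above the highest of GAT1 (2.64). In pdx3-4 it stood at 1.80 ± 0.445 CPM per kb, between GAT1 at 2.66 ± 0.316 and GAD4 at 0.805 ± 0.0895. There GAD1 and GAT1 met at their edges, with 2.303 in the highest GAD1 library and 2.301 in the lowest GAT1 library.

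Of the 6 genes tested against Col-0, GAD1, SSADH and GAD4 were higher in pdx3-3, GAT1 was lower, and GAD2 and POP2 were not called. This gives 3 called higher, beside a background of 19% of all 18783 tested genes, 1 called lower, beside a background of 17.5%, and 4 called in either direction, beside 36.4%. In pdx3-4 GAD1 and SSADH were called higher, none was called lower, and 4 were not called. The background in that comparison was 20.9% higher, 18.4% lower and 39.2% in either direction. With 6 genes, no more is read from these counts than which genes they are. The median log2 fold change over the 6 genes was 0.41 in pdx3-3 and 0.24 in pdx3-4, and the medians over all tested genes were -0.03 and -0.01. The 2 comparisons share the Col-0 libraries, so they are not independent of each other.

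**Figure D2:**
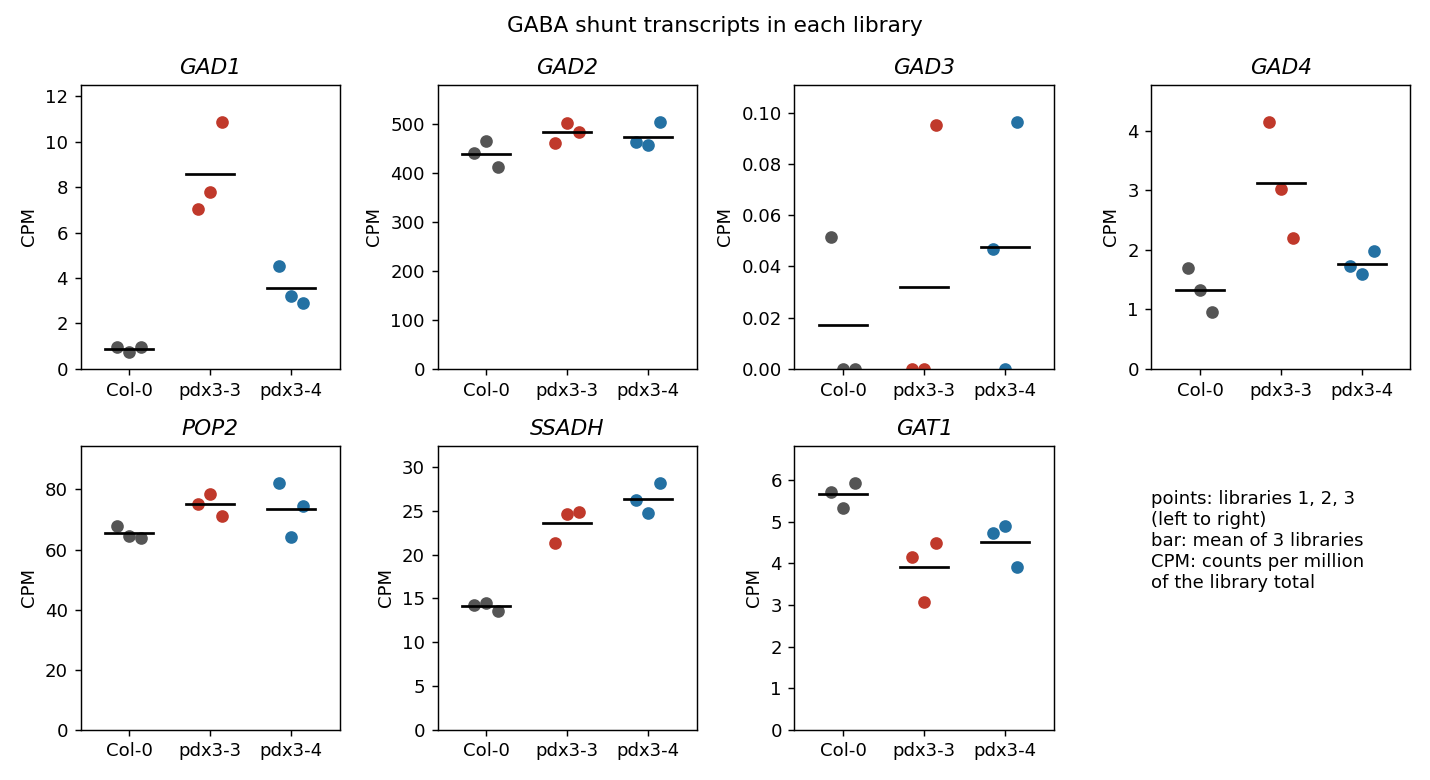
Level of each of the 7 genes in CPM (linear axes from 0, scaled per gene), with 1 point per library in the order 1, 2, 3 and a bar at the mean of 3 libraries per genotype. GAD1 steps from below 1 CPM in Col-0 to 2.89 to 4.55 in pdx3-4 and 7.04 to 10.9 in pdx3-3, whereas the GAD2 points of the 3 genotypes overlap.

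GAD1 (chr5:5710910-5715075, plus strand, 8 exons) gave the largest difference among the 6 genes, and it was graded between the alleles. In Col-0 it measured 0.978, 0.729 and 0.963 CPM in libraries 1, 2 and 3, from 19, 16 and 18 counts. In pdx3-3 it measured 7.04, 7.78 and 10.9 CPM, from 112, 157 and 228 counts. In pdx3-4 it measured 4.55, 3.22 and 2.89 CPM, from 97, 67 and 60 counts. All 3 genotypes were apart: every pdx3-3 library was above every pdx3-4 library, and every pdx3-4 library was above every Col-0 library. The means were 0.890 ± 0.139 CPM in Col-0, 8.56 ± 2.03 in pdx3-3 and 3.55 ± 0.879 in pdx3-4 (SD, n = 3). Against Col-0, GAD1 rose 9.28-fold in pdx3-3 (log2 fold change 3.21, SE 0.24, edgeR adjusted p = 3.06e-06) and 3.85-fold in pdx3-4 (log2 fold change 1.95, SE 0.26, edgeR adjusted p = 0.000162). The 95% intervals of the log2 fold changes were 2.68 to 3.75 and 1.38 to 2.51. The summed root markers, given above, were in no mutant library above the highest Col-0 library. Their sums were only 1 to 7 counts a library, and none of these markers passed the filter. Whether root tissue in the samples bears on GAD1 was not tested.

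The difference in GAD1 between the alleles was tested directly. GAD1 was 2.41-fold higher in pdx3-3 than in pdx3-4 (log2 fold change 1.27, SE 0.20, 95% interval 0.83 to 1.71, edgeR adjusted p = 0.00523). It was the only one of the 6 genes called between the alleles, beside a background of 6.16% of all tested genes. None of the alternatives run ended any of the 3 GAD1 calls.

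GAD2, the major rosette form, showed no called change. Its levels were 439.8, 465.7 and 411.8 CPM in the Col-0 libraries. The pdx3-3 libraries had 461.0, 502.7 and 484.6 CPM, and those of pdx3-4 had 462.3, 456.2 and 504.1 CPM. The 3 genotypes overlapped, with means of 439.1 ± 27.0, 482.8 ± 20.9 and 474.2 ± 26.1 CPM (SD, n = 3). The log2 fold change was 0.08 in pdx3-3 (95% interval -0.11 to 0.27, edgeR adjusted p = 0.503) and 0.06 in pdx3-4 (95% interval -0.13 to 0.24, edgeR adjusted p = 0.626). Between the alleles it was 0.02, with an interval of -0.17 to 0.21. With upper-quartile scaling the GAD2 estimates against Col-0 changed sign, to -0.042 and -0.058, and were again not called. The GAD2 locus (chr1:24551807-24557730, plus strand) shares 359 exon bases with AT1G65970 (TPX2) on the opposite strand, and whether counting used the strand is not stated in the labels.

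GAD4, a further decarboxylase gene with low counts in these rosettes, rose in pdx3-3. Its levels were 1.70, 1.32 and 0.963 CPM in Col-0, from 33, 29 and 18 counts. The pdx3-3 libraries had 4.15, 3.02 and 2.19 CPM, from 66, 61 and 46 counts, and the pdx3-4 libraries had 1.74, 1.59 and 1.98 CPM. All 3 pdx3-3 libraries were thus above all of the others, whereas pdx3-4 overlapped Col-0. The rise in pdx3-3 was 2.23-fold (log2 fold change 1.16, SE 0.28, 95% interval 0.53 to 1.78, edgeR adjusted p = 0.00838). Without pdx3-3 libraries 1 and 2, the value was 0.66 and the call was lost. That fit leaves the genotype with library 3 alone and assumes that it varies like the others. It lost calls over all genes as well. In pdx3-4 the log2 fold change of GAD4 was 0.35 (95% interval -0.30 to 1.00, edgeR adjusted p = 0.376). The difference between the alleles was 0.80 (95% interval 0.20 to 1.40) and did not pass the test after adjustment (edgeR adjusted p = 0.118). GAD4 shares 306 exon bases with AT2G04155 on the opposite strand. Without the strand setting of the counting, reads of this overlap could belong to either gene, so the rise may not be that of GAD4 alone.

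GAD3, which lies 2037 bases from GAD4 on the minus strand of chromosome 2 (chr2:469370-472070 beside chr2:474108-476997), was close to absent. The Col-0 libraries held 1, 0 and 0 counts of it, those of pdx3-3 held 0, 0 and 2, and those of pdx3-4 held 1, 0 and 2. Every library was at or below the limit of 3 counts that a count of 0 allows, which corresponds to 0.137 to 0.189 CPM, so no fold is given. The further family member GAD5 (AT3G17760) was likewise at 0 to 0.0964 CPM and was not tested. The coding sequences of GAD3 and GAD4 were 90.5% identical. The exons of their transcripts shared 43 stretches of 50 bases, 1.95% of those in GAD4, so a small part of the reads could not be told apart by sequence. The other pairs among GAD1 to GAD4 were 73.9% to 76.8% identical in coding sequence, GAD1 and GAD2 being 76.8% identical. Their exons shared no stretch of 50 bases.

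Read together per length, the decarboxylase transcripts stayed almost wholly GAD2. GAD2 made up 99.5% ± 0.0975 of GAD1 to GAD5 transcript in Col-0, 97.6% ± 0.302 in pdx3-3 and 98.9% ± 0.214 in pdx3-4 (SD, n = 3). GAD1 made up 0.211% ± 0.0430, 1.80% ± 0.408 and 0.775% ± 0.214 in the same order, and GAD4 0.280% ± 0.0720, 0.595% ± 0.209 and 0.344% ± 0.0207. GAD2 transcript exceeded GAD1 transcript 412-fold to 615-fold in the Col-0 libraries, 42.9-fold to 63.0-fold in pdx3-3 and 97.8-fold to 168-fold in pdx3-4, with no overlap. The size of these folds depends on the length taken for GAD2, and would be smaller with all of its exons. The share of GAD1 differed from Col-0 by 1.59 percentage points in pdx3-3 and 0.564 in pdx3-4, and the alleles differed by 1.02 points. Each of these had an exact two-sided permutation p = 0.1, the smallest that 3 against 3 libraries allows. The share of GAD4 differed from Col-0 by 0.314 points in pdx3-3 (exact permutation p = 0.1) and by 0.0634 points in pdx3-4 (exact permutation p = 0.3).

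**Figure D3:**
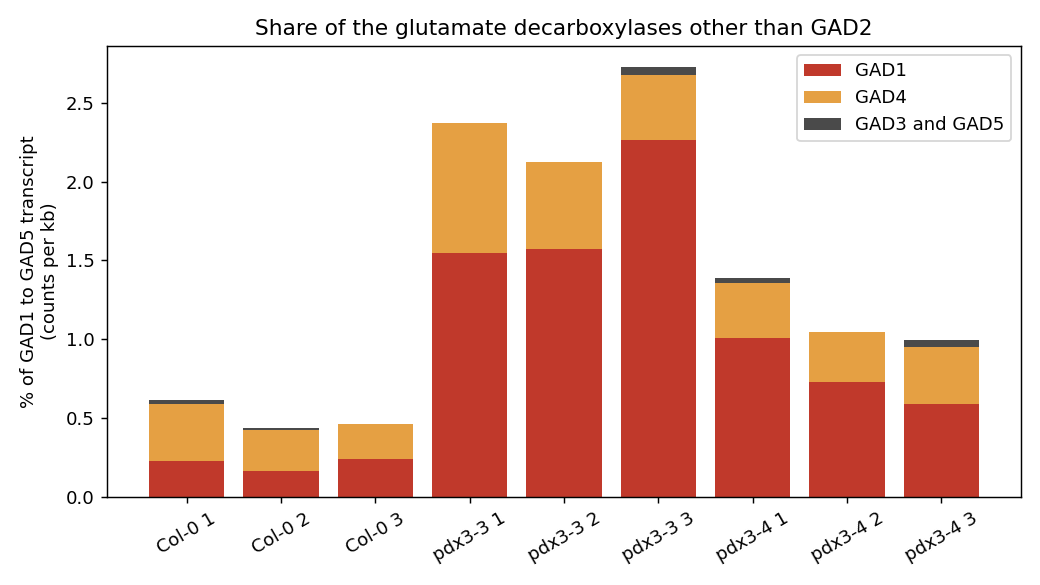
Share of GAD1 to GAD5 transcript, in counts per kb, that came from GAD1 (red), GAD4 (orange) and GAD3 with GAD5 (dark) in each library, in percent, as stacked bars from 0; the rest is GAD2. The red part is tallest in the 3 pdx3-3 libraries (mean 1.80%), lower in pdx3-4 (0.775%) and lowest in Col-0 (0.211%).

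The mitochondrial steps after decarboxylation differed from each other. SSADH (chr1:29882121-29887414, minus strand, 20 exons) measured 14.3, 14.4 and 13.5 CPM in Col-0, 21.3, 24.6 and 24.8 CPM in pdx3-3, and 26.2, 24.8 and 28.2 CPM in pdx3-4. Every mutant library was above every Col-0 library, and the ranges of the mutants overlapped at 24.8 CPM. SSADH rose 1.61-fold in pdx3-3 (log2 fold change 0.69, SE 0.09, 95% interval 0.49 to 0.89, edgeR adjusted p = 0.000168). It rose 1.80-fold in pdx3-4 (log2 fold change 0.85, SE 0.09, 95% interval 0.65 to 1.05, edgeR adjusted p = 3.38e-05). Unlike GAD1, SSADH was not called between the alleles, at -0.17 (95% interval -0.36 to 0.03, edgeR adjusted p = 0.329).

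POP2 (chr3:7835144-7839061, plus strand, 19 exons), the step between GABA and succinic semialdehyde, was not called in either mutant. It measured 67.9, 64.4 and 63.9 CPM in Col-0, 75.3, 78.6 and 71.2 CPM in pdx3-3, and 82.3, 64.1 and 74.5 CPM in pdx3-4. In CPM the pdx3-3 libraries lay above all Col-0 libraries, but this does not hold after TMM scaling. The factors were 0.974 for Col-0 library 1 and 1.023 for pdx3-3 library 3, and dividing by them makes these libraries overlap. The pdx3-4 library 2 fell inside the Col-0 range. The log2 fold change was 0.14 in pdx3-3 (95% interval -0.06 to 0.35, edgeR adjusted p = 0.263) and 0.12 in pdx3-4 (95% interval -0.09 to 0.32, edgeR adjusted p = 0.346). Between the alleles it was 0.02, with an interval of -0.18 to 0.23. POP2 shares 276 exon bases with AT3G22210 on the opposite strand, and without the strand setting of the counting reads of the overlap could belong to either.

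GAT1 (chr1:2583594-2586969, minus strand), the plasma membrane GABA importer, was the only one of the 6 genes called lower. Its levels were 5.71, 5.33 and 5.94 CPM in Col-0, 4.15, 3.07 and 4.48 CPM in pdx3-3, and 4.74, 4.90 and 3.90 CPM in pdx3-4. No mutant library reached the lowest Col-0 library, while the mutants overlapped each other. GAT1 fell 1.51-fold in pdx3-3 (log2 fold change -0.59, SE 0.15, 95% interval -0.93 to -0.26, edgeR adjusted p = 0.0105). Without pdx3-3 libraries 1 and 2 the value was -0.39 and the call was lost, in a fit that lost calls over all genes as well. In pdx3-4 the log2 fold change was -0.38 (95% interval -0.70 to -0.05) and missed the threshold of 0.05 (edgeR adjusted p = 0.0643). That comparison passed with upper-quartile scaling (-0.49, edgeR adjusted p = 0.0251), in a fit of Col-0 and pdx3-4 alone (-0.37, edgeR adjusted p = 0.046) and without pdx3-3 library 2 (-0.38, edgeR adjusted p = 0.0337). GAT1 was not called between the alleles, at -0.21 (95% interval -0.55 to 0.12, edgeR adjusted p = 0.502).

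**Figure D4:**
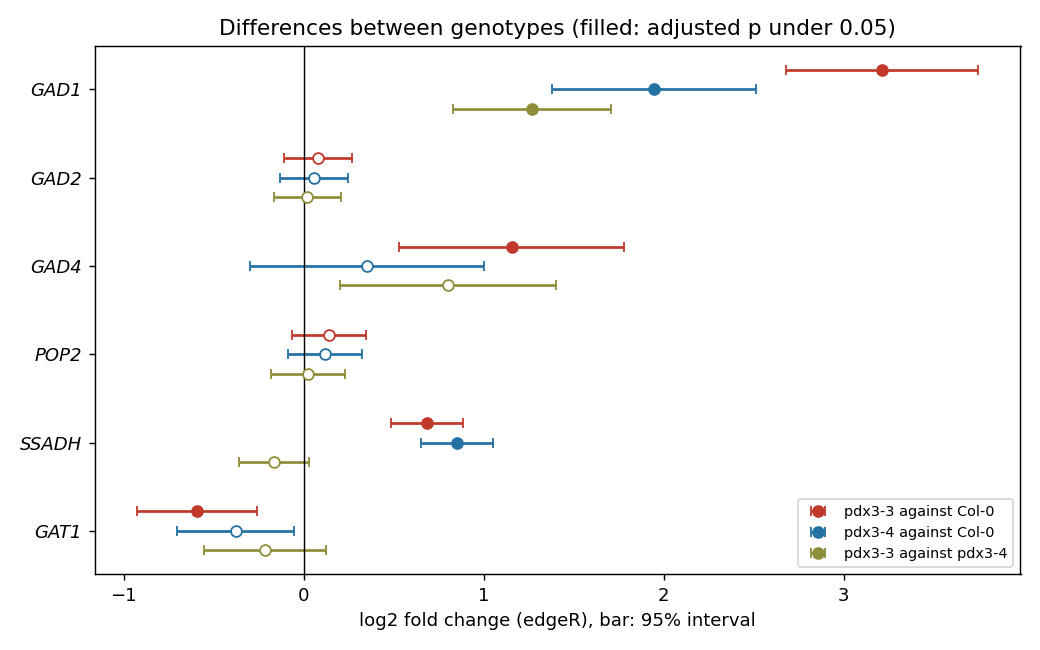
Log2 fold change of the 6 tested genes in the 3 comparisons, with 95% intervals as bars and filled points where the edgeR adjusted p is under 0.05. GAD1 is filled in all 3 comparisons (3.21, 1.95 and 1.27), SSADH in both comparisons with Col-0 (0.69 and 0.85), and GAD4 and GAT1 in pdx3-3 alone (1.16 and -0.59).

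Across the 9 libraries, the pairwise Pearson correlations of log2(CPM + 1) were 0.49 to 0.77 among GAD1, GAD2, GAD4, POP2 and SSADH, and GAT1 ran opposite to all of them, at -0.70 to -0.85. The libraries fall into genotype groups, so these values mostly restate the differences above and are given as a description. The genes whose level followed each gene most closely were looked up by the same measure among 13745 genes (13744 where the gene itself was left out) with a mean of at least 5 CPM. For GAD1 they were AT1G05575 (r = 0.993), the immune receptor-like cytoplasmic kinase gene BIK1 (AT2G39660, r = 0.992) and the lectin receptor kinase gene AT3G53810 (r = 0.992). BIK1 averaged 13.1, 31.5 and 21.6 CPM in Col-0, pdx3-3 and pdx3-4, the same order of genotypes as GAD1. For SSADH they were PIL6 (AT3G59060, also called PIF5, a phytochrome-interacting factor, r = 0.998), AT4G29950 (r = 0.997) and AT1G53430 (r = 0.997). PIL6 averaged 187.4, 280.6 and 310.0 CPM, with pdx3-4 highest, as for SSADH. The closest gene to GAD2 was RbcX1, a Rubisco assembly chaperone gene (r = 0.962), to GAD4 the lipid transfer protein gene LP1 (r = 0.965), to POP2 AT4G22820 (r = 0.960) and to GAT1 AT1G42430 (r = 0.956). High values were common: 10% of the genes compared had an r above 0.843 for GAD1 and above 0.918 for SSADH.

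Genes around the shunt were read from lists that follow from its chemistry, 39 genes in all, of which 35 passed the filter. In pdx3-3, 9 were called higher and 5 lower, 40% of the 35, and in pdx3-4 8 were called higher and 7 lower, 42.9%. Both shares are near the background of all genes, 36.4% and 39.2%. The median log2 fold change was 0.03 in each mutant. The middle 50% of all tested genes lay between -0.25 and 0.23 in pdx3-3 and between -0.26 and 0.27 in pdx3-4.

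**Figure D5:**
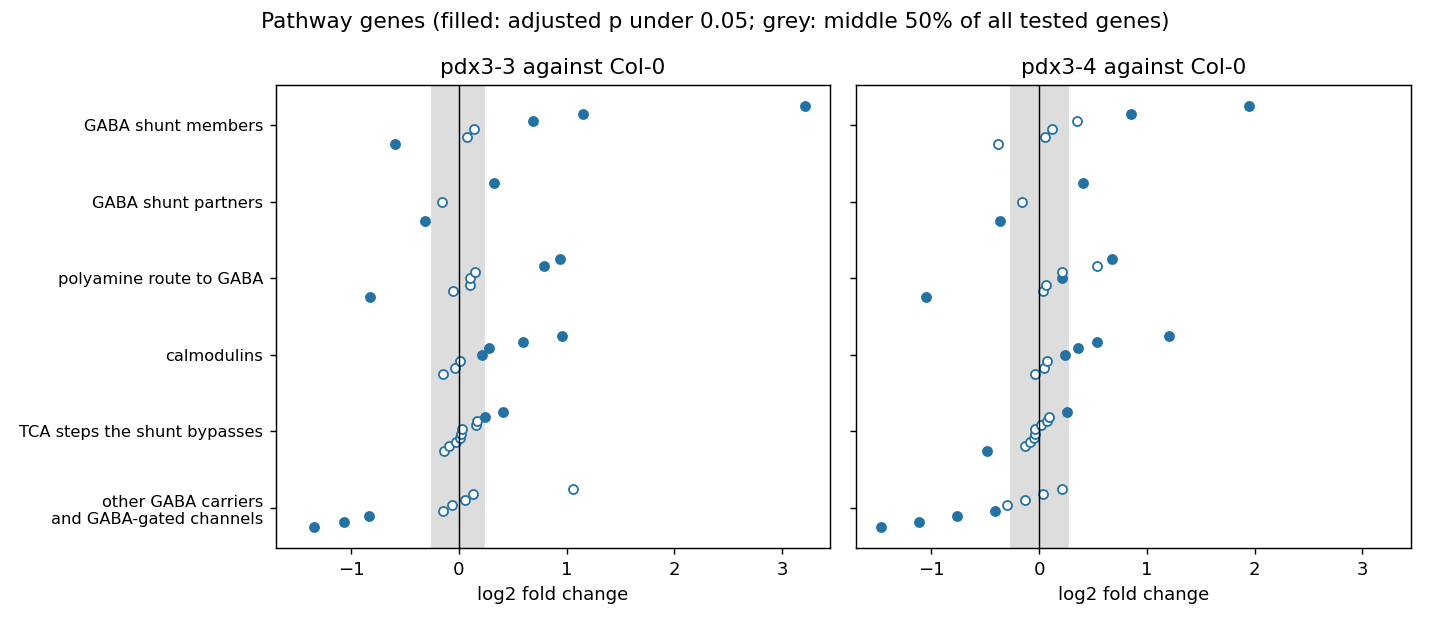
Log2 fold change against Col-0 of the shunt genes and the genes around them, 1 point per tested gene, in rows by list, for pdx3-3 (left) and pdx3-4 (right), with filled points where the edgeR adjusted p is under 0.05 and the middle 50% of all tested genes in grey. The calmodulin row has 4 filled points to the right in each panel, and the row of other carriers and channels has filled points to the left only.

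Among the direct partners, GABP (AT2G01170), the mitochondrial GABA permease, rose in both mutants. It measured 14.0 to 15.2 CPM in Col-0, 18.2 to 19.7 in pdx3-3 and 18.1 to 22.3 in pdx3-4, without overlap with Col-0. Its log2 fold change was 0.33 in pdx3-3 (edgeR adjusted p = 0.0224) and 0.41 in pdx3-4 (edgeR adjusted p = 0.00656). The pdx3-3 call of GABP was lost without Col-0 library 3 (0.28, edgeR adjusted p = 0.0588), without pdx3-3 library 2 (0.30, 0.0774) and with upper-quartile scaling (0.21, 0.0877). It was also lost without pdx3-3 libraries 1 and 2 (0.27), where calls over all genes fell as well. GLYR1 and GLYR2 encode the reductases that turn succinic semialdehyde into 4-hydroxybutyrate and also reduce glyoxylate. GLYR2 fell in both mutants (log2 fold change -0.32 and -0.36, edgeR adjusted p = 0.0358 and 0.0181), from 64.7 ± 2.34 CPM in Col-0 to 54.0 ± 8.19 and 52.2 ± 2.48 (SD, n = 3). The pdx3-3 library 1, at 63.4 CPM, lay inside the Col-0 range, and the GLYR2 call in pdx3-3 was lost under 8 of 20 alternatives. Of these, 6 left out a library (Col-0 1 or 2, pdx3-3 2 or 3, pdx3-4 2 or 3), with values of -0.32 to -0.24 and an edgeR adjusted p of 0.0501 to 0.134. The call in pdx3-4 was lost without Col-0 library 1, Col-0 library 2 or pdx3-4 library 1 (-0.34, -0.34 and -0.32, edgeR adjusted p = 0.0563, 0.0547 and 0.0693). GLYR1 was at -0.16 and -0.15 and was not called (edgeR adjusted p = 0.0997 and 0.0990), but it passed in both with upper-quartile scaling (-0.28 and -0.27).

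Calmodulin, the activator of plant glutamate decarboxylase, is encoded by 7 genes whose products are nearly identical. All 7 were tested and 4 were called higher in each mutant, none lower, with a median log2 fold change of 0.21 in pdx3-3 and 0.24 in pdx3-4. Over all tested genes, 19% were called higher and 17.5% lower in pdx3-3, and 20.9% and 18.4% in pdx3-4. With 7 genes that may share reads, nothing particular to calmodulin is read from the count. CAM2 (AT2G41110) rose most, by a log2 fold change of 0.95 in pdx3-3 (edgeR adjusted p = 1.59e-05) and 1.21 in pdx3-4 (edgeR adjusted p = 4.19e-06). Its levels of 29.9 to 36.6 CPM in Col-0, 60.5 to 71.6 in pdx3-3 and 77.1 to 80.5 in pdx3-4 did not overlap. Between the alleles, however, CAM2 was not called, at -0.26 (edgeR adjusted p = 0.125). CAM1 (AT5G37780) rose by 0.60 and 0.54 (edgeR adjusted p = 0.000239 and 0.000481), and CAM3 (AT3G56800) by 0.28 and 0.36 (edgeR adjusted p = 0.0217 and 0.00522), respectively. The pdx3-3 call of CAM3 was lost under 5 of 20 alternatives, among them without Col-0 library 3, pdx3-3 library 2 or pdx3-3 library 3 (0.22, 0.23 and 0.25, edgeR adjusted p = 0.0553, 0.0918 and 0.0753). The remaining call was CAM4, looked up after its values were seen, at 0.21 and 0.24 (edgeR adjusted p = 0.0426 and 0.0228). Reads shared between calmodulin genes could have been counted for either copy, so the split between them is uncertain.

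GABA is also made from polyamines, through diamine oxidases and aminoaldehyde dehydrogenases. Of 7 such genes, all tested, 2 were called higher and 1 lower in each mutant, with medians of 0.11 and 0.21. These 3 calls are 42.9% of the list, near the 36.4% and 39.2% called over all tested genes. The copper amine oxidase gene AT4G12290 rose from 8.60 ± 1.56 CPM in Col-0 to 17.2 ± 0.826 in pdx3-3 and 14.3 ± 4.70 in pdx3-4 (SD, n = 3), with log2 fold changes of 0.94 and 0.68 (edgeR adjusted p = 0.00386 and 0.0204). In pdx3-4 its call was lost under 3 of 19 alternatives, without Col-0 library 2, Col-0 library 3 or pdx3-4 library 1, with values of 0.67, 0.56 and 0.39 (edgeR adjusted p = 0.0559, 0.0624 and 0.0613). That pdx3-4 library, at 19.8 CPM, was well above the others at 11.4 and 11.8. CUAO2 rose in pdx3-3, by 0.80 (edgeR adjusted p = 0.00908), and was at 0.53 in pdx3-4 (edgeR adjusted p = 0.0529), which passed under 6 of 19 alternatives, among them without Col-0 library 1 (0.83, edgeR adjusted p = 0.0019). The other call in pdx3-4, looked up after its values were seen, was the aldehyde dehydrogenase gene ALDH10A8 at 0.21 (edgeR adjusted p = 0.0251). ATAO1 (AT4G14940) fell in both mutants (log2 fold change -0.82 and -1.05, edgeR adjusted p = 0.0124 and 0.00303). Its pdx3-3 call was lost without pdx3-3 library 3 (-0.72, edgeR adjusted p = 0.0544). Without pdx3-3 libraries 1 and 2, AT4G12290 was at 0.95, CUAO2 at 0.61 and ATAO1 at -1.02 in pdx3-3. AT4G12290 and ATAO1 were no smaller in size than with all libraries, and CUAO2 was smaller. The pdx3-3 calls of all these oxidase genes were lost, but that fit leaves pdx3-3 with library 3 alone. It lost calls over all genes as well.

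Of 12 genes of the TCA steps that the shunt goes around, 10 were tested, with 2 called higher in pdx3-3 and 1 higher and 1 lower in pdx3-4, and medians of 0.02 and -0.04. This is 20% of the tested genes of the list in each mutant, beside 36.4% and 39.2% over all tested genes. OGDH2 (AT5G65750), a 2-oxoglutarate dehydrogenase subunit gene, averaged 35.8 ± 2.75 CPM in Col-0, 49.3 ± 2.74 in pdx3-3 and 44.5 ± 2.14 in pdx3-4 (SD, n = 3). Its log2 fold changes were 0.41 and 0.26 (edgeR adjusted p = 0.00176 and 0.0195). The pdx3-4 call was lost with upper-quartile scaling (0.14) and without Col-0 library 2, pdx3-4 library 1 or pdx3-4 library 3 (0.24, 0.23 and 0.25, edgeR adjusted p = 0.0610, 0.0727 and 0.0590). AT4G26910, for an E2 subunit of the same complex, passed narrowly in pdx3-3 at 0.24 (edgeR adjusted p = 0.0479), and was at 0.09 in pdx3-4. That call was lost under 12 of 20 alternatives. Of these, 8 left out a library (any but Col-0 1), with an edgeR adjusted p of 0.0662 to 0.113. Another left out pdx3-3 libraries 1 and 2, with a value of 0.22. The gene of the other E2 subunit, AT5G55070, was looked up after its values were seen. It fell in pdx3-4 by 0.49 on the log2 scale (edgeR adjusted p = 0.000221) and was at -0.13 in pdx3-3 (edgeR adjusted p = 0.144). It was the single gene of the 35 called between the alleles (0.35, edgeR adjusted p = 0.0130). This is 2.86% of the 35, beside 6.16% of all tested genes. The AT5G55070 difference between the alleles missed the threshold without pdx3-3 library 2, without pdx3-4 library 2 and without pdx3-4 library 3 (edgeR adjusted p = 0.0544, 0.0599 and 0.0725). It also missed it without pdx3-3 libraries 1 and 2, at 0.31, where calls over all genes fell as well. The succinyl-CoA ligase gene AT5G08300 was not called, at 0.17 and 0.01 (edgeR adjusted p = 0.0560 and 0.884).

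The remaining list held 9 genes of other transporters that accept GABA, among them the proline transporters, and of ALMT anion channels, a family with members that GABA inhibits. Of these, 8 were tested, none was called higher, and 3 were called lower in pdx3-3 and 4 in pdx3-4, with medians of -0.11 and -0.36. Over all tested genes, 17.5% and 18.4% were called lower and 19% and 20.9% higher in the same comparisons, so with 8 genes the counts say only which genes they are. ALMT12 (AT4G17970), a guard cell anion channel gene, fell in both mutants (log2 fold change -1.07 and -0.76, edgeR adjusted p = 0.00273 and 0.0136). Its Col-0 libraries were spread, at 8.34, 9.21 and 5.14 CPM, against 3.42 to 4.15 in pdx3-3 and 4.10 to 5.21 in pdx3-4, which reached into the Col-0 range. The pdx3-4 call was lost without Col-0 library 2 (-0.57, edgeR adjusted p = 0.0588) or pdx3-4 library 3 (-0.70, edgeR adjusted p = 0.0555). PROT3 (AT2G36590) fell in both mutants (log2 fold change -0.83 and -1.11, edgeR adjusted p = 0.0173 and 0.00354), from 4.39 to 5.65 CPM in Col-0 to 2.62 to 3.47 and 1.88 to 3.52. The PROT3 call in pdx3-3 was lost without Col-0 library 2 or pdx3-3 library 3 (-0.73 and -0.74, edgeR adjusted p = 0.0629 and 0.0666). ALMT6 (AT2G17470) was low throughout, at 0.866 to 1.18 CPM in Col-0, and fell in both mutants (log2 fold change -1.35 and -1.47, edgeR adjusted p = 0.00761 and 0.00434). The remaining call in pdx3-4, looked up after its values were seen, was ALMT9 at -0.41 (edgeR adjusted p = 0.00962). Without pdx3-3 libraries 1 and 2, ALMT12 was at -0.93, PROT3 at -1.01 and ALMT6 at -0.96 in pdx3-3. ALMT12 and ALMT6 were thus smaller in size than with all libraries, and PROT3 larger. None of the 3 calls held, but that fit leaves pdx3-3 with library 3 alone and lost calls over all genes as well. The loss is not read as particular to these genes.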

How the data were processed

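Each deposited file held the authors' counts for 1 library, as whole numbers per gene locus without normalization. The submitters' processing notes list FastQC, TopHat2 (version 2) and the build TAIR10. No counting program, strand setting or rule for multiply mapped reads is stated in the labels. The labels name a stranded polyA kit. Groups follow the genotype labels. Names, lengths, loci and sequences came from RefSeq TAIR10.1 by locus ID, with 32835 of 33602 IDs matched. Transcript length is that of the longest coding transcript.

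Low genes were removed with filterByExpr and TMM scaling was applied. A single model with genotype as its term, over all 9 libraries, left 6 residual degrees of freedom for the quasi-likelihood test of edgeR 4.0.16 (limma 3.58.1, R 4.3.3). Each adjusted p is a Benjamini-Hochberg value over all genes tested in its fit, which were 18783 in the model above and other numbers in some alternatives, and was called under 0.05. The test was first tried on simulated data. The edgeR p-values set a difference between genotypes against the variation between these libraries, with the estimate of spread shared over genes. They do not cover variation between independent insertion lines. Shares of the decarboxylases were compared by exact permutation. The limit of 3 counts for a count of 0 covers counting error only. Replicates differed by more than sampling noise (chi-square per degree of freedom 5.34 to 25.5), so none was counted as a repeat.

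All 7 genes, GAD5, GLYR1, GLYR2 and GABP are named, then up to 3 genes of each other list with the smallest adjusted p in pdx3-3, and for each tested gene the genes, up to 3, with the highest Pearson r of log2(CPM + 1). The genes and lists were chosen with earlier results of these data known. Alternatives were other scalings, filters and tests (DESeq2 1.42.0, limma-voom), organellar loci left out, 2 genotypes a fit, a replicate block and each library left out. The fit without pdx3-3 libraries 1 and 2 was added after seeing the data.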

Additional observations from a re-analysis of the deposited data

Results flagged for a closer look

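The difference of GAD1 between the alleles drew attention because the same contrast with Col-0 gave unequal effects in the 2 mutants and the test of the difference itself passed. GAD1 was higher in pdx3-3 than in pdx3-4 by a log2 fold change of 1.27 (edgeR adjusted p = 0.00523), in 3 of 3 pdx3-3 libraries against every pdx3-4 library. PDX3 transcript was also lower in pdx3-3 than in pdx3-4, at 8.22 to 10.8 against 42.7 to 51.5 CPM. Whether the amount of PDX3 bears on GAD1 was not tested.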

How the results depend on the processing

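Of 354 recomputed log2 fold changes of the 6 tested genes, 339 kept their direction and their side of the threshold, and all 90 recomputed family shares kept their direction. GAD1 ranged from 3.01 to 3.56, 1.74 to 2.06 and 1.06 to 1.60 in the 3 comparisons, and SSADH from 0.56 to 0.76 and 0.74 to 0.91 against Col-0, all called. Upper-quartile scaling moved the median of all genes from -0.03 to -0.15 in pdx3-3 and from -0.01 to -0.13 in pdx3-4. With it GAD2 went to -0.042 and -0.058, and in pdx3-4 AT4G26910 went to -0.020 and AT5G08300 to -0.10. With a library left out, GAD2 ranged from -0.0083 to 0.123 in pdx3-4 and from -0.016 to 0.087 between the alleles, POP2 from -0.076 to 0.099 between the alleles, and AT5G08300 from -0.020 to 0.033 in pdx3-4. Without pdx3-3 libraries 1 and 2, POP2 was -0.056 between the alleles.

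Without pdx3-3 libraries 1 and 2, GAT1 in pdx3-3 went from -0.59 to -0.39. Of the 6 genes, those called lower in pdx3-4 went from 0 to 1 with upper-quartile scaling and in fits of 2 genotypes, and 0 to 1 with a library left out. Of the 35 genes around the shunt, 9 were called higher in pdx3-3, 5 with upper-quartile scaling and 5 to 8 with a library left out. Those called lower numbered 5, then 10 and 2 to 5. In pdx3-4 the 8 called higher became 5 with upper-quartile scaling and 4 to 8 with a library left out. Calls over all tested genes, in either direction, moved as well. In pdx3-3 they numbered 6846 of 18783, 8432 with upper-quartile scaling and 5259 to 6832 with a library left out. In pdx3-4 they numbered 7369, then 8407 and 5837 to 7483. The shifts are thus not read as particular to the listed genes. Between the alleles the 1 called higher became 2 with the replicate block, 2 in a fit of 2 genotypes and 0 to 3 with a library left out, and 0 to 1 were called lower. All tested genes called between the alleles numbered 1157, then 1089 with the replicate block, 1612 in a fit of 2 genotypes and 391 to 1816 with a library left out.

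Same-numbered libraries showed no steady tendency to deviate together (correlation above 0.1 in 2 of 9 pairs, range -0.18 to 0.35). Differently numbered libraries ranged as widely, from -0.36 to 0.38. With 3 libraries a group this check is coarse and cannot exclude a pairing, and the numbers were not used as pairs in the main model. The replicate block changed no call of the 6 genes. The cause of these shifts was not tested. Low counts limit GAD1 in Col-0, GAD4 and GAD3.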
